A study of Mus musculus with 6 samples.

Results

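Cluster 2 of the deposited clustering held 4679 of the 38154 nuclei (12.3%) sequenced from mouse intestinal organoids, and its nuclei carried more RNA of Nrp1, Acss3, Kif26b, Sox5 and Igsf11 than the other nuclei did. Its members were taken by the cluster number alone, which the deposited table of nuclei gives without a name. The organoids were epithelial cultures from the jejunum of C57BL/6 mice, 8 to 12 weeks old, and all were kept in medium conditioned by fibroblasts. The medium came from quiescent mouse embryonic fibroblasts (QCM, 3 samples) or from senescent ones (SCM, 3 samples). The samples hold epithelium and the secretions of fibroblasts, not fibroblasts themselves. The study asked what factors released by senescent cells do to the epithelium, and here the effect on cluster 2 is described.

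The epithelium of the small intestine is renewed from stem cells at the crypt base, which carry the receptor Lgr5 and depend on Wnt signals. Their daughters divide and become absorptive enterocytes or secretory cells, which include goblet, Paneth, enteroendocrine and tuft cells. Injury can return the epithelium to a state with genes of the fetal gut, and the transcriptional co-activator YAP takes part in that return. Nuclear RNA is rich in unspliced transcripts, to which long genes contribute many reads.

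By replicate number, cluster 2 had 471, 1023 and 1072 nuclei in QCM, and 64, 745 and 1304 in SCM. SCM replicate 1 stood apart before any comparison. It held 430 nuclei in all, and 175 of its cell barcodes (of 176 shared with any library) also occurred in QCM replicate 1. In cluster 2, 16 of its 64 barcodes (25%) were shared, against 0.690% to 5.31% in the other samples. Counts were 941381 UMIs (unique molecular identifiers, which count RNA molecules) in cluster 2 of SCM replicate 1 and 2479943 to 6353406 in the other samples, so values of SCM replicate 1 were the least precise. The labels do not say whether replicates came from separate mice. The methods of the study give single values as mice in general, unless stated otherwise, and do not say so for these libraries, so that p-values measure the spread between these samples, which may be technical.

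Nuclei of cluster 2 were deeper than the others in 6 of 6 samples. The median was 10413 against 8104.5 UMIs per nucleus in QCM replicate 1, 2782 against 2235 in QCM replicate 2 and 1967 against 1533 in QCM replicate 3. In the SCM replicates it was 10629.5 against 1866.5, 2952 against 2471 and 2154.5 against 1939. The share of UMIs from ribosomal protein genes was lower in cluster 2 in 6 of 6 samples, from 2.13% to 10.2% against 2.62% to 14.7% in the other nuclei. The share from genes over 100 kb was higher in 6 of 6, from 19.9% to 31.3% against 14.9% to 29.1%. These differences moved with the cluster, and their part in the values below was not tested.

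Nrp1 (GRCm38 chromosome 8, 128358604 to 128503363, plus strand) encodes neuropilin 1, a co-receptor for semaphorins and vascular endothelial growth factor. Its summed counts per 1000000 UMIs (CPM) in cluster 2 were 20.5, 52.2 and 35.9 in QCM and 90.3, 57.7 and 19.8 in SCM (replicates 1, 2 and 3 in order, here and below), against 10.4, 13.0, 7.7, 23.6, 15.3 and 5.3 in the other nuclei in that order. Each sample was higher in cluster 2, by 1.77 ± 0.43 on the log2(CPM + 0.5) scale (SD, n = 6), while the levels of the 2 parts overlapped between samples, since the other nuclei of SCM replicate 1 lay above cluster 2 of QCM replicate 1. These ratios are descriptions with no test, because the clusters were built on the same genes.

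Acss3 (chromosome 10, 106933517 to 107123668, minus strand), which encodes a mitochondrial acyl-CoA synthetase, had 23.0, 50.7 and 52.0 CPM in cluster 2 of QCM and 38.2, 61.9 and 40.8 in SCM. In the other nuclei it had 9.4, 16.3, 13.0, 19.5, 14.2 and 9.2 CPM, so that every cluster 2 value lay above every value of the other nuclei. The mean log2 ratio was 1.66 ± 0.47 (SD, n = 6).

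Kif26b (chromosome 1, 178529125 to 178939200, plus strand) encodes an atypical kinesin tied to noncanonical Wnt signalling. It had 6.6, 25.7 and 24.2 CPM in cluster 2 of QCM and 29.7, 37.3 and 18.7 in SCM, against 3.7 to 13.4 in the other nuclei. QCM replicate 1 was low in both parts, and the log2 ratio was 1.56 ± 0.57.

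Sox5 (chromosome 6, 143828425 to 144781977, minus strand), a transcription factor of the SOX family and a gene of 953553 bases, had 15.4, 14.4 and 21.4 CPM in QCM and 19.1, 24.2 and 15.5 in SCM. The other nuclei had 3.9 to 8.9 CPM, below every cluster 2 value, and the log2 ratio was 1.54 ± 0.32. Igsf11 (chromosome 16, 38892671 to 39027159, plus strand), an adhesion protein with immunoglobulin domains, had 15.9, 16.9 and 23.4 CPM in QCM and 17.0, 25.5 and 22.5 in SCM, against 4.4 to 16.6 in the other nuclei. In SCM replicate 1 the Igsf11 level was nearly equal in both parts, at a log2 ratio of 0.03, and the mean over samples was 1.33 ± 0.78. Of the other nuclei of SCM replicate 1, 7 very deep ones in cluster 14 gave 1310315 of the 3130545 UMIs. These 7 nuclei held 33 UMIs of Igsf11 and 32 of Kif26b, so the levels of both genes in the other nuclei there leaned on them.

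**Figure D1:**
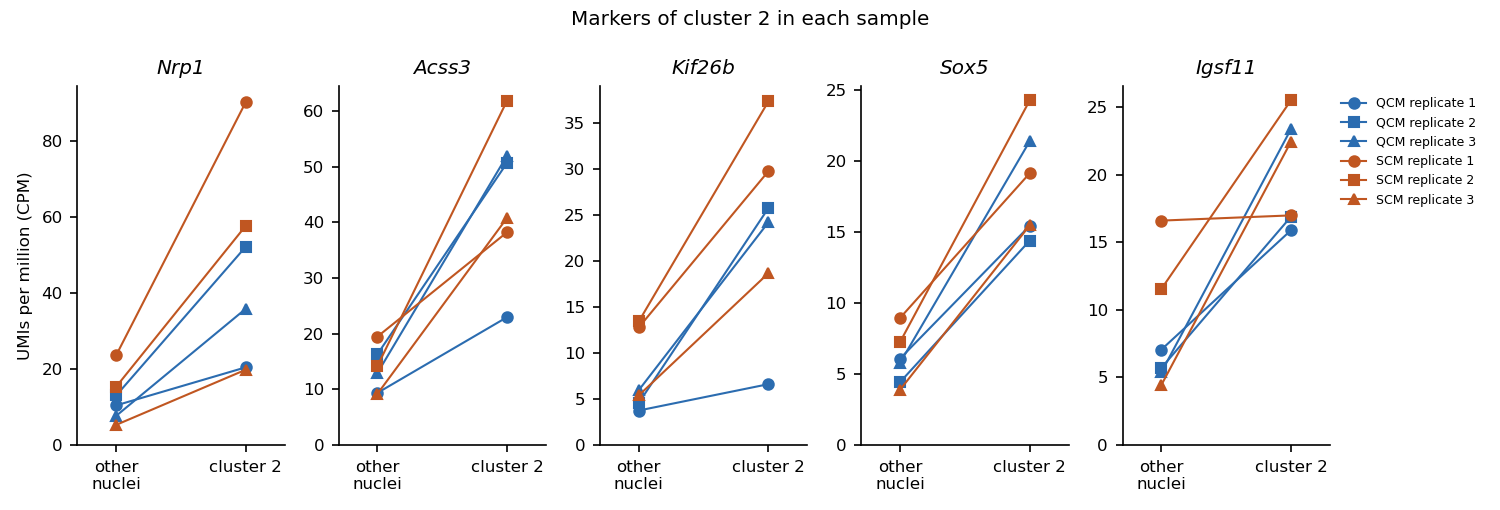
Level of the 5 markers in CPM (vertical axis, from 0) in the other nuclei and in cluster 2, with a line for each of the 6 samples, QCM in blue and SCM in orange. Each line rises to cluster 2, that of Igsf11 in SCM replicate 1 by a log2 ratio of 0.03.

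The 5 markers were not restricted to cluster 2. With UMIs pooled over samples each was highest there of the 15 clusters, but the next clusters were close for some. Nrp1 had 37.4 CPM in cluster 2 and 27.9 in cluster 9, and Acss3 had 41.7 against 34.2 in cluster 11. Kif26b had 20.3 CPM against 18.0 in cluster 7, Sox5 17.5 against 15.1 in cluster 11, and Igsf11 19.7 against 18.5 in cluster 9. Over samples the ranges of these neighbours overlapped those of cluster 2, and for 2 markers the mean over samples was higher in another cluster, through the few nuclei of SCM replicate 1. The mean of Igsf11 was 102.9 CPM in cluster 12 against 20.2 in cluster 2, since 1 UMI in the single nucleus of SCM replicate 1 made 551 CPM. The mean of Sox5 was 34.1 CPM in cluster 10 against 18.3 in cluster 2, and in cluster 10 SCM replicate 1 gave 146.6 CPM from 2 UMIs in 4 nuclei. Across the 15 clusters, the profile most like that of Nrp1 was that of Acss3, with a Pearson r of 0.88 on log2(CPM + 1) among 12117 genes, followed by Scml4 (0.82) and Adgrb3 (0.80). For Kif26b it was Gm16638 (0.86), for Sox5 Gm37745 (0.87) and for Igsf11 Atg16l2 (0.79). These correlations describe the same libraries and clusters, some of which held few nuclei.

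**Figure D2:**
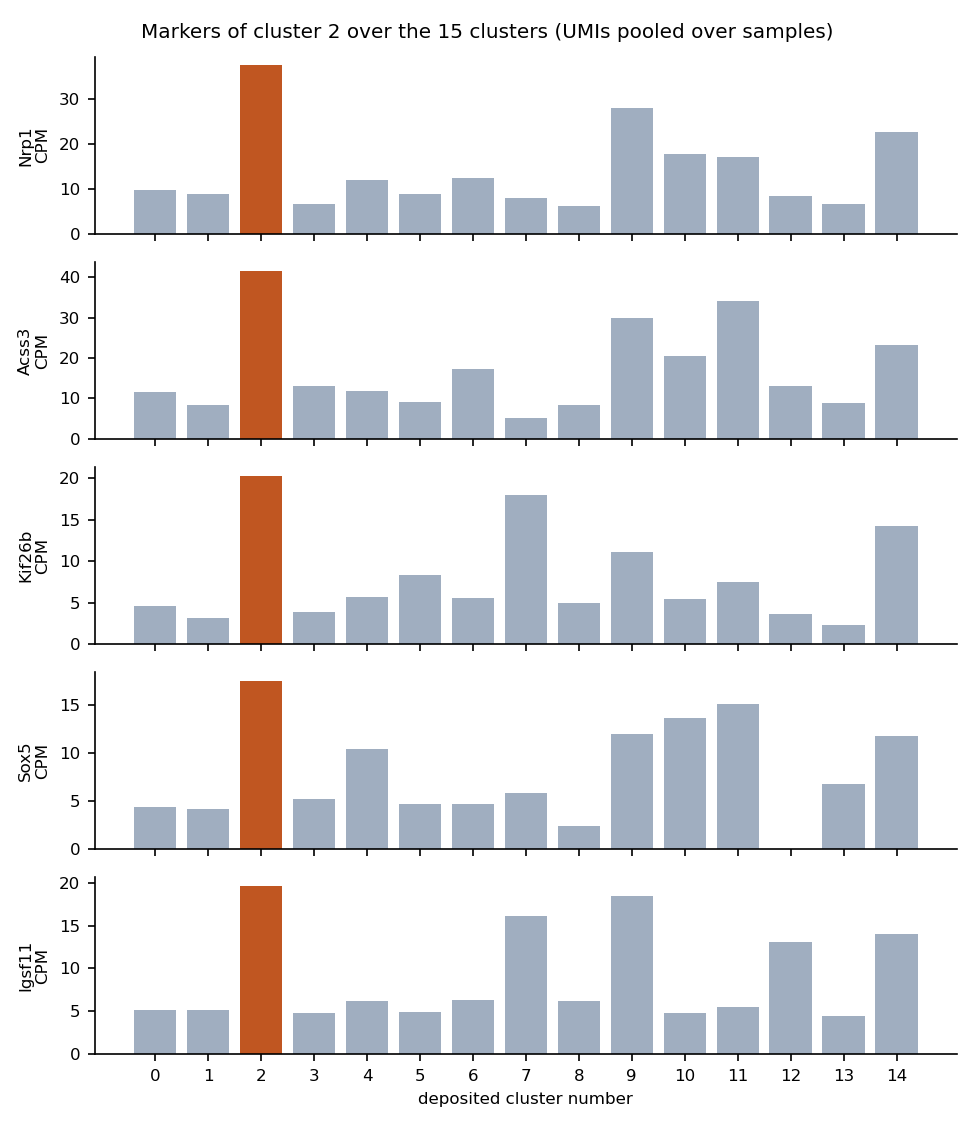
Pooled level of the 5 markers in CPM (vertical axes, from 0) in each of the 15 deposited clusters (horizontal axis), with cluster 2 in orange. Cluster 2 is the highest bar in each panel, and clusters 7, 9 and 11 come close to it for Kif26b, Igsf11 and Sox5.

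How many single nuclei showed the markers depended on depth. Without thinning, 35.8% of all cluster 2 nuclei had a UMI of at least 1 of the 5. By sample it was 50.1%, 40.7% and 28.5% in QCM and 82.8%, 49.5% and 22.7% in SCM, highest in the deep replicate 1 samples. When each nucleus was thinned to 1000 UMIs, with shallower nuclei left out, the share was 14.6% of 4569 nuclei in cluster 2 and 3.41% of 30406 other nuclei. Cluster 8, where the summed enterocyte genes were higher than in the other clusters in 6 of 6 samples, gave 1.76% of 1366 nuclei at the same depth and 9.32% unthinned. The median depth behind the unthinned shares was 1967 to 10629.5 UMIs in cluster 2 and 1941 to 11314 in cluster 8. By sample the thinned share in cluster 2 was 8.70%, 16.6% and 16.3% in QCM and 13.1%, 21.3% and 10.1% in SCM, and it was above the share of the other nuclei of its sample in 6 of 6. The value of SCM replicate 1 rests on 8 of 61 nuclei in 1 random draw, and the share expected over all draws was 19.1% there and 7.48% to 20.3% in the other samples. At least 2 of the markers were seen in 1.29% of the thinned cluster 2 nuclei and in 0.0559% of the others.

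**Figure D3:**
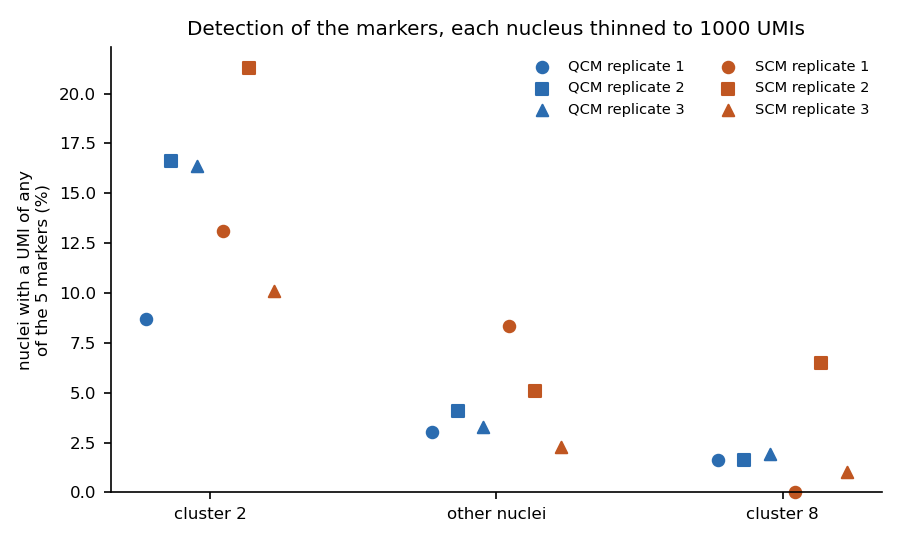
Share of nuclei with a UMI of any of the 5 markers (vertical axis, percent) after thinning to 1000 UMIs, by sample, in cluster 2, all other nuclei and cluster 8. Cluster 2 lies between 8.70% and 21.3%, above the other nuclei of the same sample each time.

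Few genes were much higher in cluster 2, some of them markers, and more genes were much lower, the lowest of them protein coding. Among 8383 genes at 20 CPM or more in either part, 2559 (30.5%) were higher in 6 of 6 samples and 1227 (14.6%) lower, with a median log2 ratio of 0.10. Of genes alike in direction in 6 of 6 samples, 10 at 20 CPM in cluster 2 were at least 2-fold higher. Nrp1, Acss3, Kif26b and Igsf11 were among these 10. At 20 CPM in the other nuclei, 48 were at least 2-fold lower. The count of 10 became 21 when the CPM of single nuclei were averaged and 17 without the 6% of nuclei with the most UMIs.

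Of the 20 genes with the highest ratios, 11 were not protein coding, against 93.0% coding among the 8383 genes, and 11 were over 100 kb long, against 15.7%. Of the 15 genes with the lowest ratios 9 were also over 100 kb long. Gm7205, an unprocessed pseudogene on chromosome 5, led with 20.5 ± 7.8 against 4.3 ± 1.3 CPM (SD, n = 6), and reads of a pseudogene could be shared with a parent copy. The transcript 9230110F11Rik followed the first markers with 43.1 ± 9.6 against 14.5 ± 4.6 CPM. It lies opposite the pseudogene Gm5159, whose log2 ratio was 1.73, and the counting of strands was not given in the sources used here, so reads of the pair may not be told apart. The lincRNAs Gm48508, A330102I10Rik and Gm26883 and the antisense transcripts BC048559, 4921518K17Rik, Gm28376 and Gm20663 were also among the 20. The coding genes beside the markers were Dach2, a nuclear factor of the dachshund family (27.1 ± 6.4 against 12.9 ± 5.1 CPM), Adgrb3, an adhesion G protein-coupled receptor (22.8 ± 7.3 against 11.9 ± 4.3), the cytochrome P450 gene Cyp2c38 (21.7 ± 2.3 against 11.6 ± 2.3), Rftn2 and Cttnbp2. Sox5 itself was under the limit of 20 CPM.

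Ratios followed gene length in the medians over the table, though both its highest and its lowest genes were often long. In 5 bins of equal size, from the shortest to the longest of the 8383 genes, the median log2 ratio was -0.17, 0.04, 0.11, 0.15 and 0.19. The markers lie above this trend, but their length was not accounted for.

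The 15 genes with the lowest ratios were all protein coding. Ptprn2, a protein of hormone granules, had 20.3 ± 8.0 against 130.6 ± 40.2 CPM (log2 ratio -2.75 ± 0.83, SD, n = 6). The potassium channel genes Kcnb2 (13.5 against 79.7 CPM) and Kcnma1 (15.4 against 93.3 CPM) and Cpe, a carboxypeptidase that trims hormone precursors (4.9 against 22.8 CPM), were lower by log2 ratios of -2.61, -2.58 and -2.48. Msln (mesothelin), also on the fetal list, and Myof (myoferlin), also on the YAP list, had log2 ratios of -2.64 and -1.90, respectively. The other 9 were Syt16, Sytl2, Ano7, Samd5, St18, Anxa10, Mep1b, Hepacam2 and Plcb1, between -2.97 and -1.77.

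Crypt base stem cell genes were higher in cluster 2, by small amounts. Of 14 list members at 5 CPM or more, 9 were higher and 1 lower in 6 of 6 samples, with a median log2 ratio of 0.27. Among all 12430 genes at 5 CPM or more in either part, 25.2% were higher and 13.2% lower in 6 of 6 samples, with a median of 0.10, and the counts of the lists below stand beside these shares. Lgr5 had 649 ± 299 against 444 ± 208 CPM (log2 ratio 0.56 ± 0.09), Smoc2 1004 against 698 CPM (0.53 ± 0.08), Lrig1, a brake on growth factor receptors, 520 against 406 CPM (0.39 ± 0.13), and the ubiquitin ligase gene Rnf43 659 against 530 CPM (0.33 ± 0.17). Hmgb2 was the member that was lower, at 179 against 239 CPM. Of 12 Wnt targets and feedback genes, 6 were higher in every sample and none lower, with a median of 0.21.

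Cycling genes differed little. Of 13 DNA replication genes, 6 were higher in 6 of 6 samples and none lower (median log2 ratio 0.16), with Pola1, a DNA polymerase subunit, at 339 against 258 CPM. The list had 20 genes, of which 13 were in the deposited matrices, and its Mcm genes were not among them. Of 20 mitosis genes, 5 were higher and 1 lower (median 0.15). The spindle motor gene Kif11 had 157 against 130 CPM and Ube2c 76.0 against 103 CPM.

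Lists of differentiated cells were lower. All 7 goblet genes were lower in 6 of 6 samples (median log2 ratio -1.15), with the mucin gene Muc2 at 17.5 against 47.8 CPM and Fcgbp at 123 against 262 CPM. All 8 Paneth genes were lower (median -0.85), with Lyz1, which encodes lysozyme, at 28.3 against 49.99 CPM. Of 12 enterocyte genes 7 were lower and none higher (median -0.40), with Fabp1 at 437 against 634 CPM and Apoa4 at 95.3 against 164 CPM. Of 6 enteroendocrine genes 5 were lower (median -0.89), and both tuft genes at 5 CPM were lower (median -1.75). Sums of these lists were above 0 in cluster 2 in every sample, up to 3966 CPM for the enterocyte list and 1979 CPM for the Paneth list, both in QCM replicate 1, where the other nuclei had 5971 and 2955 CPM. Free RNA in droplets can give such UMIs, and its part was not tested.

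The 10 fetal epithelium genes were all lower in cluster 2 in 6 of 6 samples, with a median log2 ratio of -1.49. Clu, a marker of regenerating epithelium, had 35.9 against 118 CPM, S100a6 195 against 407 CPM and Anxa1 10.3 against 33.6 CPM. The YAP targets were mixed: of 10, 2 were higher (Crim1, 254 against 217 CPM, and Rbms3, 40.6 against 28.8 CPM), 3 were lower, and the median was -0.28. The nuclei were epithelial, with 708 against 857 CPM of Epcam and 7 of 10 epithelial genes lower in every sample (median -0.25). No fibroblast, endothelial, immune or enteric neuron and glia gene of the lists reached 5 CPM in either part. Their summed levels in cluster 2 were 3.2 to 8.5, 5.3 to 15.7, 1.5 to 6.4 and 6.1 to 14.6 CPM, and Col1a1, Thy1 and Kdr were at 0.

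**Figure D4:**
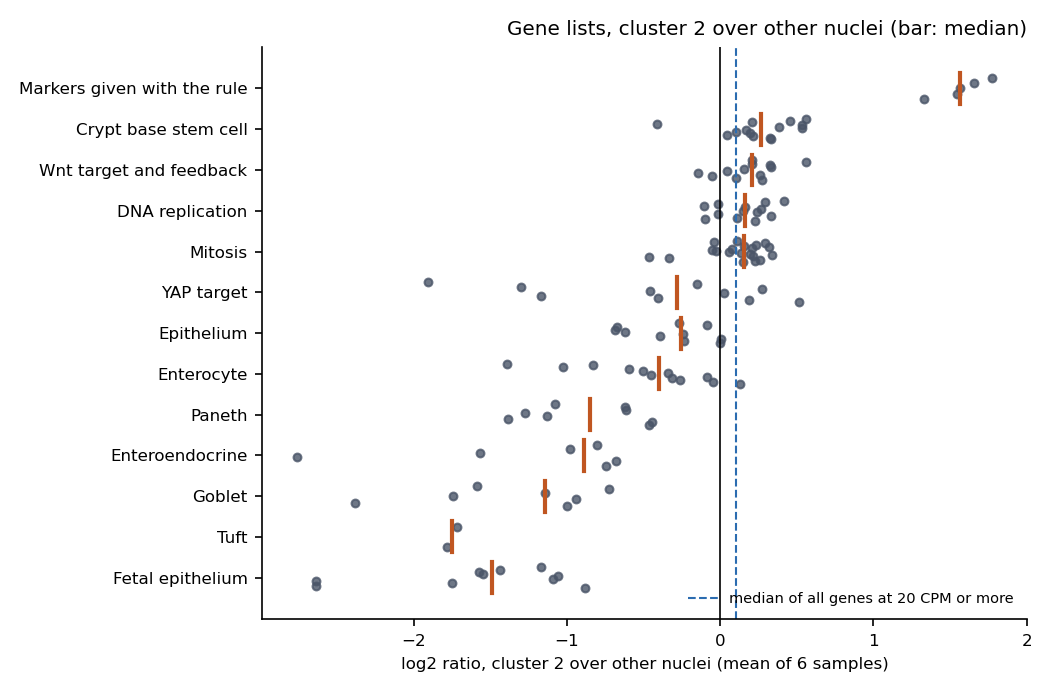
Mean log2 ratio of cluster 2 over the other nuclei (horizontal axis) for each gene of 13 lists, as points, with the list median as an orange bar and the median of all genes at 20 CPM or more as a dashed line at 0.10. Medians of the stem, Wnt and cycle lists lie slightly above the dashed line, from 0.15 to 0.27, and those of the differentiated and fetal lists lie below 0.

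Relatives of the markers were nearer to equal in cluster 2 and the other nuclei. Among 19 neuropilin, plexin, semaphorin and vascular growth factor genes at 5 CPM, the median log2 ratio was 0.13, with 5 higher and 3 lower in 6 of 6 samples, and Nrp2 had 12.3 against 11.7 CPM. The plexin gene Plxna2, a co-receptor of neuropilins, had 143 against 118 CPM and Sema3c, a ligand, 258 against 274 CPM. Sox6, of the same subgroup as Sox5, had 144 against 114 CPM (log2 ratio 0.34 ± 0.24), and among 6 SOX genes only Sox5 was higher in 6 of 6 samples and 1 was lower. Of 11 non-mitotic kinesins 3 were higher and 1 lower in every sample (median 0.08), with Kif16b at 170 against 143 CPM next to Kif26b. Of 10 acyl-CoA synthetase genes 3 were higher (Acss3, Acss2 and Acsl1) and 2 lower (median 0.12), with Acss2 at 218 against 183 CPM. Of 12 genes on the list of Igsf11 relatives and junction adhesion, which holds Igsf11 itself, 3 were higher and 4 lower (median -0.15). Clmp, one of the higher, had 47.0 against 34.9 CPM.

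Over 14434 genes, the cluster with the most similar pooled profile was cluster 0, with a Pearson r of 0.995 on log2(CPM + 1), followed by cluster 5 at 0.986. Against cluster 0 alone, genes were counted at 20 CPM in either cluster and with the same direction in every sample. Of these, 18 were at least 2-fold higher in cluster 2 by the mean log2 ratio and none at least 2-fold lower. SCM replicate 1 had only 19 nuclei in cluster 0 and weighed on these ratios. By the mean CPM 10 of the 18 were 2-fold higher, and without SCM replicate 1 there were 16 such genes, 8 of them among the 18. With all 6 samples, most of the stem cell genes compared were nearly level. Lgr5 had 649 against 611 CPM (log2 ratio 0.10 ± 0.20), Smoc2 1004 against 999 CPM, Lrig1 520 against 527 CPM and Rgmb 229 against 224 CPM. Olfm4 was higher in 5 of 6 samples, with 61.8 against 49.1 CPM (0.36 ± 0.29). The 5 markers kept their higher levels, with Nrp1 at 46.1 against 10.96 CPM (2.01 ± 0.65), Kif26b at 1.93 ± 1.08 and Igsf11 at 1.45 ± 1.13, the last higher in 5 of 6 samples. Without SCM replicate 1 the 5 ratios lay between 1.87 and 2.17. Rbms3, an RNA-binding protein (40.6 against 12.2 CPM), and Htr4, a serotonin receptor (40.8 against 22.6 CPM), were among the 18, at log2 ratios of 2.22 and 1.45, or 1.41 and 0.85 without SCM replicate 1. Syt16, Ano7, Samd5 and Hepacam2, which were low against all other nuclei, had mean log2 ratios over cluster 0 of 0.74, 0.91, 0.69 and 0.43. They were higher in only 4, 4, 3 and 3 of 6 samples, at 3.0, 3.7, 4.8 and 8.0 CPM in cluster 2. By the mean CPM Hepacam2 was not higher, at 8.04 against 8.14. Without SCM replicate 1 the log2 ratios were 0.55, 0.33, -0.0029 and -0.20. Cluster 2 was the deeper cluster in 6 of 6 samples. By the same rule against cluster 5, where SCM replicate 1 had 20 nuclei, 90 genes were at least 2-fold higher and 44 lower. Without SCM replicate 1 there were 32 and 57, of which 24 and 39 were among the first. Smoc2 had 1004 against 516 CPM and Slc9a3, the sodium-proton exchanger of absorptive cells, 6.8 against 35.7 CPM.

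Of all nuclei of a sample, cluster 2 took 12.4%, 12.9% and 10.6% in QCM and 14.9%, 14.8% and 12.0% in SCM. The Wilson 95% interval of SCM replicate 1 ran from 11.8% to 18.6%, and intervals cover counting error only. The groups overlapped, since SCM replicate 3 lay below QCM replicates 1 and 2. The means were 12.0% ± 1.2 in QCM and 13.9% ± 1.6 in SCM (SD, n = 3), a log2 ratio of 0.22 ± 0.23 (SE), which was not called by edgeR (adjusted p = 0.825 over the 15 clusters). The two-sided exact permutation p was 0.3, where 0.1 is the smallest that 3 samples against 3 allow. Without the shared barcodes the log2 ratio was 0.34 (adjusted p = 0.829), and without both replicate 1 samples it was 0.19 (adjusted p = 0.971). The median UMIs per nucleus in cluster 2 were 5054 ± 4659 in QCM and 5245 ± 4680 in SCM (exact permutation p = 0.7). Replicate 1 of both media was the deepest, so that leaving out 1 of them unbalanced the depths. SCM minus QCM was 191 with all samples, 179 without both replicate 1 samples, and -2501 without SCM replicate 1.

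Whether any gene of cluster 2 was called between SCM and QCM depended on the fit. With the filter on low counts the edgeR quasi-likelihood test called 0 of 13434 genes at an adjusted p under 0.05 (percent called 0), with 549 genes at an unadjusted p under 0.05 (4.09%), 126 higher in SCM and 423 lower. That count changed with the library left out, and its lean to lower genes turned without QCM replicate 1. There the count was 146 (92 higher and 54 lower). The lean held without each of the other samples. The count was 138 without SCM replicate 2 (49 and 89) and 304 without SCM replicate 1 (115 and 189). Without QCM replicate 3 it was 450 (120 and 330). Without QCM replicate 2 it was 1369 (273 and 1096), and without SCM replicate 3 it was 1203 (210 and 993). Without both replicate 1 samples it was 183, with 115 higher and 68 lower. DESeq2 called 1 (0.00745%), Mgam2-ps, and voom with limma called 0. On simulated counts with the depth and fitted dispersions of these samples, 94% of genes changed 4-fold and 20% of genes changed 2-fold were called. The changed genes were drawn only from genes with a mean over 20 CPM, so genes of lower level were not covered. These shares do not carry over to every real gene, since Apoa4 had an estimate of -2.92 ± 1.17 (SE, log2) and was not called (edgeR adjusted p = 0.885). Without the filter on low counts 498 genes were called, 473 of them lower in SCM. In that fit the prior degrees of freedom were infinite, which gives all genes of a level the same spread, against a median of 4.65 with the filter. With the filter, edgeR called no gene with each sample left out in turn, without the shared barcodes or without both replicate 1 samples.

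None of the 5 markers was called, and the groups overlapped for each. Nrp1 had a mean of 36.2 ± 15.9 CPM in QCM and 56.0 ± 35.3 in SCM (log2 difference 0.52 ± 0.49, SE, edgeR adjusted p = 0.899), and it was -0.20 without both replicate 1 samples. The log2 differences of Acss3, Kif26b, Sox5 and Igsf11 were 0.15, 0.58, 0.14 and 0.19.

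The genes with the smallest unadjusted p are given by their levels. With the filter edgeR called none of these 10. Without it 4 of the 5 higher and 4 of the 5 lower ones were called, all but Ccdc3 and Psap, beside 1.79% of all genes. The 10 were picked by their p in the same counts, so these calls are no separate support. Mgam2-ps, a pseudogene of a starch-digesting enzyme, had 12.6, 17.4 and 23.4 CPM in QCM and 54.2, 49.1 and 46.7 in SCM, with no overlap (log2 difference 1.44 ± 0.24, edgeR adjusted p = 0.885, DESeq2 adjusted p = 0.0221). Anxa1, a phospholipid-binding protein on the fetal list, had 5.2, 2.3 and 3.2 CPM in QCM and 8.5, 24.2 and 18.7 in SCM (2.18 ± 0.47, edgeR adjusted p = 0.885). Phldb2, Ccdc3 and Bicd1 had log2 differences of 0.97, 1.04 and 0.88. Lower in SCM were Smim24 (192, 103 and 144 CPM in QCM, 48.9, 54.9 and 86.3 in SCM), Cst3, which encodes the protease inhibitor cystatin C (-1.43), Shmt2, a mitochondrial enzyme of one-carbon metabolism (-0.98), Ssr2 (-1.06) and Psap (-0.62). The CPM of the 2 media did not overlap for any of these 10 genes, as for 605 genes (4.50%) higher and 444 (3.31%) lower in SCM of the 13434.

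By list, the estimates went different ways, with no member of any list called by edgeR with the filter and a median log2 difference of -0.0035 over all 13434 genes, 49.6% of which had an estimate above 0. All 8 fetal genes tested had higher estimates in SCM, with a median of 0.74 and 3 at an unadjusted p under 0.05 (background 0.938% higher). The median stayed above 0 with each sample left out, between 0.38 and 1.05. Without both replicate 1 samples it was 1.37, with 9 of 9 higher and 6 at an unadjusted p under 0.05. Clu had 22.0, 6.1 and 15.7 CPM in QCM and 21.2, 114.5 and 35.6 in SCM, so that the groups overlapped and SCM replicate 2 stood far above the other samples. Without the filter, 3 of 14 fetal genes and 2 of 21 YAP targets were called higher, beside 0.0897% of all genes called higher in that fit. That share is over 27873 genes, many of them of low counts. The summed fetal list had 243 ± 116 against 414 ± 189 CPM in cluster 2, and 431 ± 187 against 1148 ± 368 CPM in the other nuclei. By sample the sum in cluster 2 was 334, 113 and 282 CPM in QCM and 195, 520 and 527 in SCM, so the groups overlapped. The mix of clusters in the other nuclei differed between samples, and its part in these sums was not tested. Of 11 YAP targets 9 had higher estimates (median 0.21), 3 of them at an unadjusted p under 0.05, with Rbms3 at 24.2 against 57.1 CPM. That median rose to 0.93 when QCM replicate 3 was left out and to 0.47 in the absence of SCM replicate 1, and it was 0.10 without QCM replicate 1. Without SCM replicate 2 only 1 target had an unadjusted p under 0.05. Of 14 stem cell genes 13 had higher estimates (median 0.21), with Lgr5 at 484 ± 259 against 813 ± 274 CPM (log2 difference 0.71 ± 0.37, edgeR adjusted p = 0.885). The only stem cell gene at an unadjusted p under 0.05 was lower, Hmgb2, a chromatin protein of dividing cells (-1.04 ± 0.41, edgeR adjusted p = 0.885). It was called lower without the filter (edgeR adjusted p = 0.000719), while without QCM replicate 1 no stem cell gene had an unadjusted p under 0.05. Without SCM replicate 2 the stem cell median was 0.075, with 11 of 15 higher. It was 0.37 without QCM replicate 2 and 0.30 without SCM replicate 3. In each of these 2 fits, 1 stem cell gene was higher and 1 lower at an unadjusted p under 0.05. Of 13 Wnt genes 11 were estimated higher (median 0.22), of 13 replication genes 5 (-0.04) and of 20 mitosis genes 6 (-0.06). The sign of the last 2 medians turned with the samples. Without SCM replicate 1 they were 0.10 and 0.03, without QCM replicate 2 both were 0.01, and without both replicate 1 samples 9 of 13 (0.11) and 14 of 20 (0.05) were higher. The remaining pathway lists, neuropilin, SOX, kinesin, acyl-CoA synthetase and Igsf11 with its relatives, had medians between -0.03 and 0.19, the last being the value of Igsf11 itself. Some of these signs turned too. The neuropilin median was -0.03 without SCM replicate 2 and the SOX median -0.02 without QCM replicate 2. The Igsf11 list median was -0.0026 without QCM replicate 1, and the acyl-CoA synthetase median 0.06 without SCM replicate 1.

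Genes of differentiated cells had lower estimates in SCM, again with none called by edgeR with the filter. Estimates were below 0 for 10 of 11 enterocyte genes (median -0.97), 6 of 6 goblet genes (-1.26), 7 of 8 Paneth genes (-1.30) and 4 of 4 enteroendocrine genes (-0.98). At an unadjusted p under 0.05 were 3 enterocyte, 4 goblet, 3 Paneth genes and 1 enteroendocrine gene, all lower, beside a background of 3.15% lower. Without the filter 6 of 12 enterocyte, 4 of 8 goblet, 5 of 9 Paneth and 3 of 12 enteroendocrine genes were called lower, beside 1.7% of all genes. That share is over 27873 genes, of which only 13434 pass the filter, so it includes many genes of low counts. The fit also gives all genes of a level the same spread. Ribosomal protein genes, such as Rpl27 and Rps27, were among the 473 genes called lower too. QCM replicate 1 carried much of the lower estimates in all but the enteroendocrine list. Without it no gene of these 4 lists had an unadjusted p under 0.05, the lower estimates were 7 of 11, 5 of 6, 4 of 8 and 4 of 4, and the medians were -0.26, -0.54, -0.24 and -0.95, in the same order. The enterocyte median moved the other way, to -1.65 without QCM replicate 2 and to -1.29 without SCM replicate 3. In these fits 7 and 6 enterocyte genes were lower at an unadjusted p under 0.05. The enteroendocrine median moved to -1.72 when SCM replicate 3 was left out, and to -0.68 and -0.69 when SCM replicate 2 or QCM replicate 3 was. Of 10 epithelial genes 8 were estimated lower (-0.37), but that median was -0.10 without QCM replicate 1 and -0.12 when SCM replicate 1 was left out. With both left out it was 0.05, and 5 of 10 were higher. Agr2, which mucin folding requires, had 94.9 ± 48.3 CPM in QCM and 41.5 ± 13.97 in SCM. Mean summed levels of these lists were also lower in SCM in the other nuclei, with no test, though for the epithelial list the order turned without QCM replicate 1 (3687 CPM in QCM and 4182 in SCM), without SCM replicate 1 (4313 and 4326) and without both (3687 and 4326). The goblet sum in cluster 2 was 1357, 436 and 714 CPM in QCM and 171, 441 and 423 in SCM, with means of 836 ± 472 and 345 ± 151 (SD, n = 3). The Paneth sum in cluster 2 was 1979, 557 and 440 CPM in QCM and 477, 401 and 343 in SCM, and in the other nuclei it was 2955, 772 and 673 against 810, 591 and 455. QCM replicate 1 thus stood high in both sums. Without it the QCM mean fell from 992 to 499 CPM for the Paneth sum in cluster 2, beside 407 in SCM, from 1467 to 722 CPM in the other nuclei, beside 619 in SCM, and from 836 to 575 CPM for the goblet sum in cluster 2. The ribosomal protein share of cluster 2 was 7.28% ± 3.20 in QCM and 3.50% ± 2.27 in SCM (exact permutation p = 0.2). That share was lower in SCM on average, as these lists were, though samples were not ordered alike in all of them. SCM replicate 3 had 6.12% and the lowest Paneth sum, 343 CPM, while SCM replicate 2 had 2.13% and 401 CPM. The part of the ribosomal share in these lists was not tested.

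**Figure D5:**
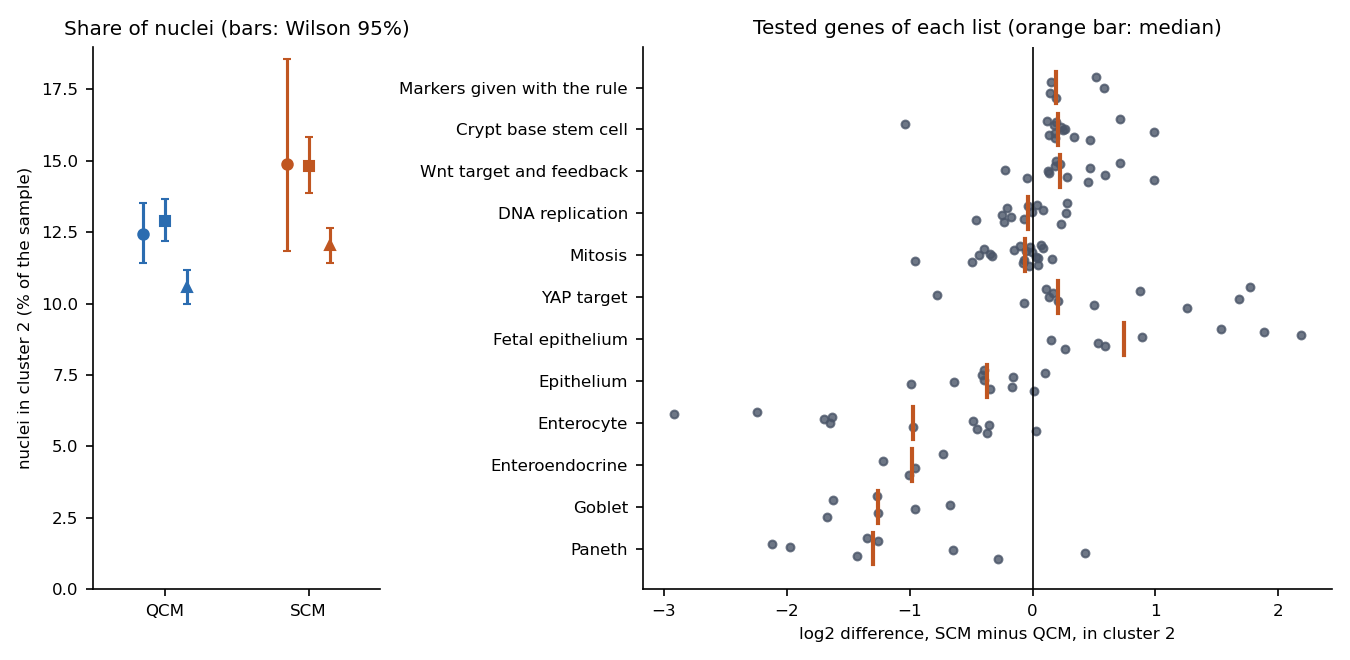
Left, share of nuclei in cluster 2 by sample (vertical axis, percent, from 0) with Wilson 95% intervals, circles, squares and triangles for replicates 1, 2 and 3. Right, log2 difference of SCM minus QCM in cluster 2 (horizontal axis) for the tested genes of 12 lists with their medians as orange bars, from -1.30 for the Paneth list to 0.74 for the fetal list.

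Whether SCM and QCM differed in another way in cluster 2 than in the other nuclei was tested as an interaction with the sample as a block. The other nuclei are a mix of clusters, and its make-up by UMIs differed between samples. Cluster 7 gave 690318 of 20320698 UMIs in QCM replicate 2 and 3402961 of 17655156 in SCM replicate 2. In replicate 1 it gave 1442751 of 34682327 UMIs in QCM and 153653 of 3130545 in SCM. The part of this mix in the interactions was not tested. Of 15689 genes 0 were called by edgeR (percent called 0) and 0 by voom with limma, and 775 (4.94%) had an unadjusted p under 0.05. Maml2, a co-activator of Notch signalling, had the smallest p. In cluster 2 it had 7.9, 11.1 and 21.0 CPM in QCM and 32.9, 31.3 and 18.1 in SCM, and in the other nuclei 6.7, 9.4 and 14.2 CPM in QCM and 52.1, 74.5 and 27.9 in SCM. Its interaction was -1.16 ± 0.22 (SE, log2, adjusted p = 0.801). It was called without SCM replicate 1, where the log2 interaction was -1.25 (edgeR adjusted p = 0.00669).

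Ano1, a chloride channel, had 6.6, 15.4 and 20.2 CPM in QCM and 14.9, 45.6 and 34.4 in SCM in cluster 2, against 9.4, 23.2, 25.2, 78.6, 201 and 65.2 CPM elsewhere (interaction -1.10 ± 0.29, adjusted p = 0.989). Without SCM replicate 3, 7 genes were called, each with a negative interaction: Ano1, Ccnd2, Plec, Rdh10, Grip1, Maml2 and Ahnak. Without both replicate 1 samples 16 were called, 14 of them negative. Among these were Maml2 (-1.40), Ano1 (-1.16), Plec, which links filaments of the cytoskeleton (-0.73), Itgb4, an integrin (-0.63), Apob (-0.60), Krt19 (-0.40) and Neat1 (-0.39), named after their values were seen, and Gm42418 and Cdk8 were positive (0.34 and 0.33). With all 6 samples, 1 gene was called when the fit was scaled by library size alone (Maml2, -1.28, adjusted p = 0.00534) and 3 without the filter on low counts (Ano1, -1.08, Maml2, -1.13, and Agr3, 1.37). The calls of the interaction thus depended on the libraries that entered, the scaling and the filter. The other genes with the smallest p in the interaction of all samples, none called in the fit with the filter and TMM scaling, were Gm35533, Ret and Samd12 with negative and Med31, Pgrmc1, Agr3, Slc39a5 and Hist1h1e with positive values. The 5 markers had interactions between -0.18 and 0.43.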

How the data were processed

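Per the labels and the methods of the study, frozen organoids were lysed, nuclei were captured in droplets with a 3′ kit, and reads were counted by the authors with CellRanger (Cell Ranger 2.1.1 in the submitters' processing notes) on mm10 with Ensembl 98. The authors removed nuclei with outlying mitochondrial fraction, reads or features, and clustered the rest after integration. The deposited matrices hold UMI counts per gene and nucleus. The deposited table of nuclei gives the cluster number, the counts per nucleus and the mitochondrial share as a fraction. The log matrix was not used, and a few genes, the mitochondrial ones among them, are not reported here. No doublets were called; the 6% of nuclei with the most UMIs were left out as an alternative.

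Counts were summed per sample for cluster 2 and for the other nuclei, since nuclei are not replicates. Symbols and coordinates came from GENCODE M21 (GRCm38), which matched 31244 of 31319 genes. Ratios of cluster 2 over the other nuclei are means over samples of log2(CPM + 0.5), with no test. SCM was tested against QCM with edgeR 4.0.16 (quasi-likelihood, TMM, filterByExpr at a minimum count of 10, Benjamini-Hochberg threshold 0.05) in R 4.3.3, with DESeq2 1.42.0 and limma 3.58.1 as alternatives. The SE of an edgeR difference is its size divided by the root of F. The share of nuclei was tested with edgeR over 15 clusters, and other values per sample with two-sided exact permutation tests. On simulated counts with 200 changed genes among 13194, all 200 from genes with a mean over 20 CPM, 17 unchanged genes were called as well. Tables and figures were made in Python 3.11.15.

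The members, lists and tests were chosen with earlier results of these data known. The genes named were the 5 markers, the 20 highest and 15 lowest ratios past 20 CPM and alike in sign in 6 of 6 samples, the 5 smallest p in each direction where none was called, at most 6 members a list, and the most like profiles. The alternatives were other tests, scalings and filters, leaving out each sample, other thinning depths, and, chosen after seeing the data, leaving out shared barcodes or both replicate 1 samples, the lists and the most like clusters without single samples, and the share expected over all draws.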

Additional observations from a re-analysis of the deposited data

How the results depend on the processing

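Of genes alike in direction in 6 of 6 samples, the count at least 2-fold higher in cluster 2 was 10. It became 21 with the mean CPM of single nuclei, 17 without the 6% of nuclei with the most UMIs and 18 against cluster 0 alone. The count at least 2-fold lower was 48 and became 0 against cluster 0. Against cluster 0 the mean log2 ratios of Syt16, Ano7, Samd5 and Hepacam2 reversed to 0.74, 0.91, 0.69 and 0.43. These genes were higher in only 4, 4, 3 and 3 of 6 samples. Without SCM replicate 1 the ratios were 0.55, 0.33, -0.0029 and -0.20. The mean share of nuclei with a marker was 14.4% at 1000 UMIs (14.97% expected over all draws), 10.2% at 500, 24.6% at 2000 and 45.7% unthinned, since fewer UMIs were drawn; in SCM replicate 1 the random draw moved it too (23.4% at 500 and 13.1% at 1000 UMIs). Genes called between SCM and QCM were 0 in the main test, 1 with DESeq2 and 498 without the low count filter. Genes called in the interaction were 0, 1 with library size alone, 3 without the filter, 16 without both replicate 1 samples, and 0 to 7 when each sample was left out; the cause was not tested. The SCM minus QCM difference of median UMIs ranged from -2501 to 2871 over the samples left out. Without both replicate 1 samples Nrp1 reversed to -0.20 and Acss3 to -0.0076 on the log2 scale, and the interaction of Nrp1 to -0.15. When each sample was left out, the log2 difference of Acss3 ranged from -0.12 to 0.33 and that of Sox5 from -0.061 to 0.31, and the interactions ranged from -0.12 to 0.62 for Nrp1, from -0.68 to 0.28 for Kif26b and from -0.62 to 0.24 for Igsf11. The interaction of Igsf11 was 0.039 with voom and limma.

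The replicate numbers were not taken as pairs, since the correlation of deviations in cluster 2 was 0.23, 0.43 and 0.05 for numbers 1, 2 and 3, the last under the 0.1 required, and the labels do not say that a number marks a shared batch. Whether they pair the samples was not settled. Each QCM sample correlated best with the SCM sample of its own number. Median UMIs of cluster 2 were also near each other by number (10413 and 10629.5, 2782 and 2952, 1967 and 2154.5). These are hints from the data only. By number, the share of nuclei in cluster 2 was higher in SCM each time (12.4% and 14.9%, 12.9% and 14.8%, 10.6% and 12.0%). With the replicate block 0 genes were called between the media (741 at an unadjusted p under 0.05 against 549 without it), 0 in the interaction, and the log2 ratio of the share was 0.22 (edgeR adjusted p = 0.654).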
